A study of Mus musculus with 6 samples.

Results

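Messenger RNA levels of 45 genes of RNA-binding and splicing factors were examined in the cerebellum of mice without the cell adhesion molecule L1cam and of their wild type siblings. Members were found by gene symbol: 9 genes of the Srsf family, 16 of the Hnrnp family, 16 of the Rbm family, and Cirbp, Cnbp, Sfpq and Ddx3x. They were measured by 70 of the 12422 probe sets tested, and the 45 genes stand among 8251 genes with a probe set of their own. A further 7 probe sets list a member gene of these families together with other genes. They were left out, and their differences between genotypes ran from -0.14 to 0.33 on the log2 scale. The families, and Cirbp, Cnbp, Sfpq and Ddx3x, which were picked by name, were chosen with results of the knockout against wild type comparison in view. The genotype differences of the members are therefore given as a description, with their error and without a test of their own. The rule reads symbols alone and has no cutoff on a value.

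SR proteins, encoded by the Srsf genes, carry an RNA recognition motif and a tail rich in arginine and serine, and they usually promote the use of splice sites near which they bind. Heterogeneous nuclear ribonucleoproteins, encoded by the Hnrnp genes, coat nascent transcripts and often repress splice sites, and several also act in transport, translation and decay of mRNA. The Rbm genes are a mixed group named for their RNA-binding motif. In the developing brain such proteins set the large program of alternative splicing by which neurons mature.

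The samples were total RNA from cerebellum at postnatal day 11, on Affymetrix Murine Genome U74Av2 arrays with 1 array per mouse. The 3 knockouts were male and carried the genotype L1CAM knockout (-/Y), and the 3 wild type mice were siblings whose sex the labels do not give. All were of the strain 129S2/SvPasCrlf, described in the design as congenic 129Sv. Which part of L1cam was altered, and whether the probe set covers it, is not stated in the sources used here. Values are log2 expression values.

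L1cam read 8.25, 8.01 and 7.91 in knockouts 1 to 3 and 8.79, 8.48 and 8.73 in wild types 1 to 3. All knockout arrays lay below all wild type arrays, with a difference of -0.60 (SE 0.10) and a 2-sided exact permutation p of 0.1, the smallest that 3 arrays against 3 allow. Array medians ran from 8.87 to 8.94. Knockout 1 stood apart in several control readings. The gap between its 3' and 5' Gapdh probe sets, which widens in shorter or degraded RNA, was 0.67 against -0.05 to 0.13 in the other 5 arrays. Its other such gaps stood out less or not at all. They were 1.09 for Actb (0.82 to 0.95 elsewhere), 0.88 for Pcx (0.47 to 0.85) and 1.33 for Tfrc (1.14 to 1.48). The Y-linked Eif2s3y read 7.11 in knockout 1, which is labelled male, against 8.59 or more elsewhere, and the Y-linked Uty read 6.67 against 7.32 or more. Kdm5d, also Y-linked, read 7.217 there and 7.218 to 7.41 elsewhere. Xist, transcribed from an inactive X chromosome, ranged only from 6.31 to 6.41 over the 6 mice. The probe sets of Uty, Kdm5d and Xist were dim, at percentiles 20.4, 20.7 and 8.39 of mean level. Flat values at so dim a probe set cannot show whether Xist was detected. Values without knockout 1 are given beside many of the results that it moves. Markers of the cerebellum were mostly bright. The dimmest were Atoh1 among granule neuron genes, at percentile 45.5 of mean level, and Pcp4 among Purkinje cell genes, at 11.4. The median percentile of mean level among all probe sets was 95.6 for 9 genes of granule neurons and 94.3 for 6 genes of Purkinje cells, against 26.7 for 4 forebrain genes.

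In limma's fit of all probe sets together, an adjusted p of 0.05 was reached by none (smallest adjusted p = 0.841). Thus 0 of the 70 member probe sets passed, where the array as a whole called 0%. At an unadjusted p under 0.05 there were 19 of the 70, with 17 higher and 2 lower, against 5.08% of all probe sets, 2.46% higher and 2.62% lower. The knockout and wild type values did not overlap at 19 of the 70, against 10.4% of all probe sets. Of these, 15 read higher and 4 lower in the knockouts, against 3.76% and 6.63%. These counts share the contrast by which members were picked, and nothing is read from them. Leaving out knockout 2 gave 27 higher, against 8.37% of all probe sets, and leaving out knockout 1 gave 15 lower, against 11.1%. In bulk tissue, fewer cells of a type and less RNA per cell cannot be told apart.

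Each gene was then represented by its brightest probe set. On this basis 29 of the 45 genes had a higher knockout mean, with a median difference of 0.066, against 38.3% of all genes and a median of -0.022. Among Hnrnp genes 12 of 16 were higher (median 0.13), among Srsf genes 6 of 9 (median 0.10) and among Rbm genes 8 of 16 (median 0.0024). Of the genes picked by name, 3 of 4 were higher. Without knockout 1, an alternative added after seeing the data, 22 of the 45 were higher (48.9%, against 39.3% of all genes): 9 Hnrnp, 5 Srsf and 5 Rbm genes, and the same number of those picked by name. The median over the 45 genes was then -0.0019, with 0.080 for Hnrnp, 0.021 for Srsf and -0.029 for Rbm genes.

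**Figure D1:**
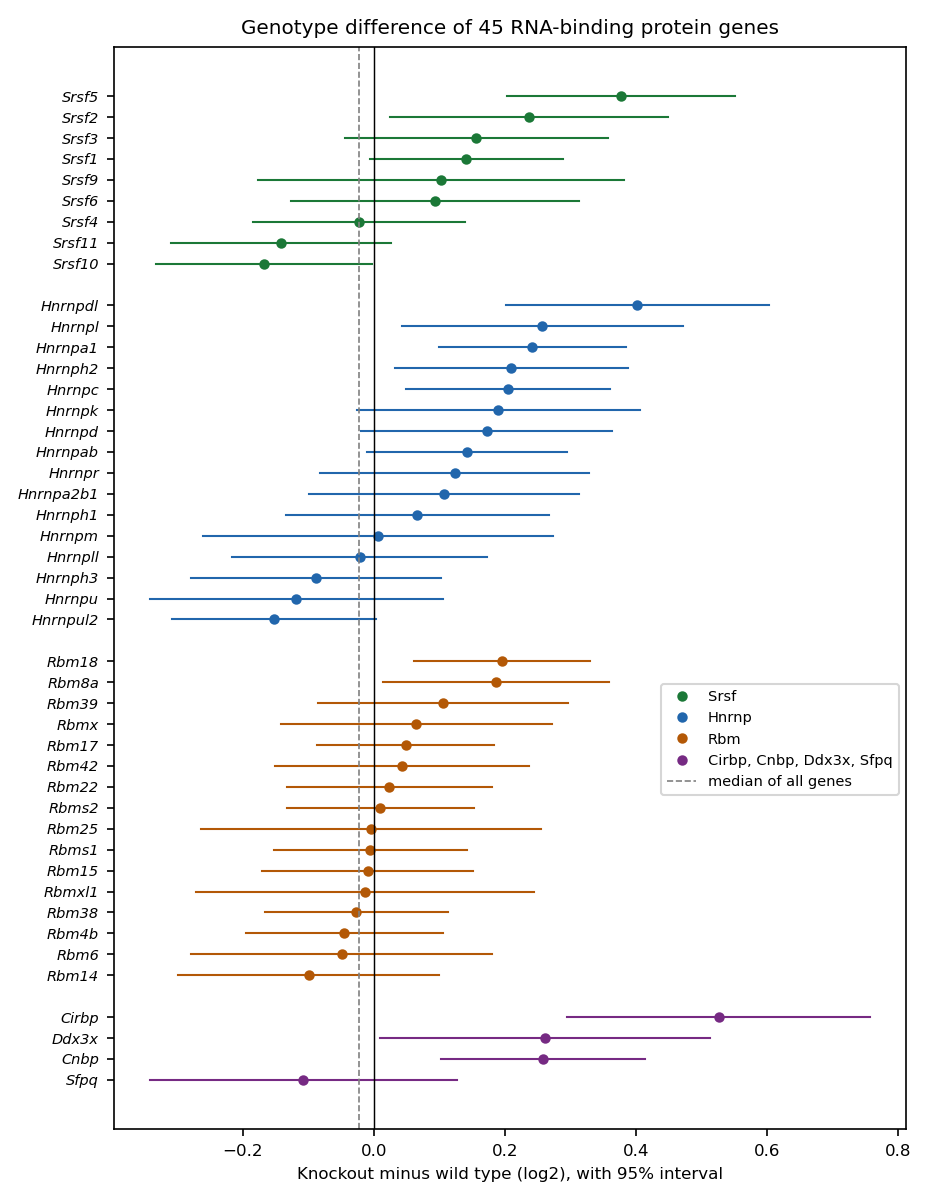
Knockout minus wild type difference (x axis, log2) of each of the 45 genes at the probe set with the highest mean, with the 95% interval of limma's fit (horizontal line) and the median of all genes at -0.022 (dashed). Differences run from -0.17 for Srsf10 to 0.53 for Cirbp, and those of the Rbm family lie closest around 0.

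The family medians varied among the arrays of each genotype. As a median deviation from the mean of 6 arrays, Hnrnp genes read 0.18 in knockout 1, -0.053 in knockout 2 and 0.044 in knockout 3, and -0.065, -0.086 and -0.018 in wild types 1 to 3. Srsf genes read 0.16, -0.045 and 0.047 in the knockouts, and 0.011, -0.019 and -0.11 in wild type. Knockout 2 thus lay within the wild type range for both families, and knockout 1 lay highest. Rbm genes read 0.062 in knockout 1, -0.048 in knockout 2 and 0.0031 in knockout 3, with knockout 2 below the wild type range of -0.031 to -0.0044. Knockout 1 held the highest of the 6 values for 25 of the 45 genes, against 16.1% of all genes, and the lowest for none, against 15.5%. Knockout 2 held the lowest value for 18, against 16.6%. The part of RNA quality in this was not tested. With the Gapdh gap as a covariate the median over the 45 genes was -0.0065, a fit that mainly marks knockout 1.

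**Figure D2:**
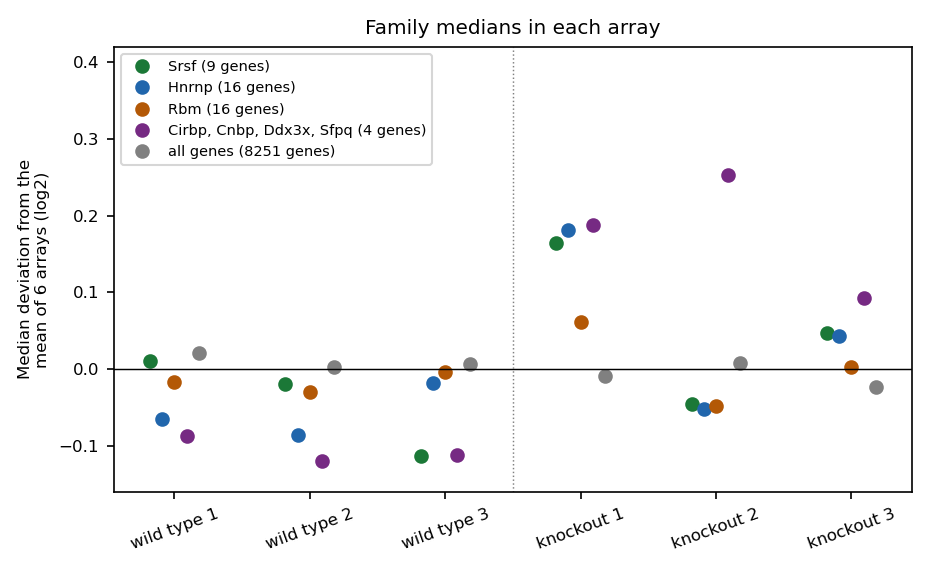
Median deviation of each family from the mean of 6 arrays (y axis, log2) in each array (x axis), with all genes in grey. The Srsf and Hnrnp medians stand at 0.16 and 0.18 in knockout 1 and at -0.045 and -0.053 in knockout 2, while the genes picked by name lie above 0 in all 3 knockouts and below 0 in all 3 wild type mice.

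Cirbp, the cold-inducible RNA-binding protein, which is raised by mild cooling and stabilises mRNAs, had the largest difference of the 45 genes. It read 11.83, 12.00 and 11.85 in knockouts 1 to 3 and 11.49, 11.49 and 11.11 in wild types 1 to 3. All knockout values lay above all wild type values, and wild type 3 was the lowest array. The difference was 0.53 (SE 0.10, 95% interval 0.30 to 0.76), or 1.44-fold, and 0.56 without knockout 1.

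Srsf5, an SR protein known to be induced by insulin in liver cells, read 11.30, 11.47 and 11.21 in the knockouts and 11.03, 10.94 and 10.87 in wild type. The groups did not overlap, and the difference was 0.38 (SE 0.08, 95% interval 0.20 to 0.55), or 0.39 without knockout 1. Hnrnpdl, a relative of the AU-rich element binding protein Hnrnpd, read 12.59, 12.89 and 12.75 in the knockouts and 12.43, 12.38 and 12.19 in wild type at its brightest probe set. Here too no values overlapped, with a difference of 0.40 (SE 0.09, 95% interval 0.20 to 0.60) that was 0.48 without knockout 1.

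The sequences upstream of these 3 genes are shown because they had the largest differences of the 45. Each is the 250 bases before the most upstream start in the RefSeq promoter table (GRCm38.p6), 5′ to 3′ on the gene's strand. The windows are chr10:80167589-80167838 (+) for Cirbp, chr5:100039223-100039472 (-) for Hnrnpdl and chr12:80945249-80945498 (+) for Srsf5. Capitals mark matches on either strand to the GC box GGGCGG, the ETS motif CCGGAAG, the CCAAT box and the TATA box TATAAA.
Cirbp: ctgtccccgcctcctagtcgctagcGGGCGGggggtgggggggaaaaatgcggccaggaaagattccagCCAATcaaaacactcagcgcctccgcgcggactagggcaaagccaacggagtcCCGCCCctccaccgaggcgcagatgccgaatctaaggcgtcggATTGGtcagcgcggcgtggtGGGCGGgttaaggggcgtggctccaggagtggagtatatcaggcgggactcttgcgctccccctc
Hnrnpdl: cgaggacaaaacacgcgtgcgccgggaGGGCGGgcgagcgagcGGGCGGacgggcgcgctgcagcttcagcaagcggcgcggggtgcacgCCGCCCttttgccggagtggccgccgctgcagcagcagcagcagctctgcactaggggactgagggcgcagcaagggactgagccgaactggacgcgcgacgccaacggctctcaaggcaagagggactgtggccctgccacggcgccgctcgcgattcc
Srsf5: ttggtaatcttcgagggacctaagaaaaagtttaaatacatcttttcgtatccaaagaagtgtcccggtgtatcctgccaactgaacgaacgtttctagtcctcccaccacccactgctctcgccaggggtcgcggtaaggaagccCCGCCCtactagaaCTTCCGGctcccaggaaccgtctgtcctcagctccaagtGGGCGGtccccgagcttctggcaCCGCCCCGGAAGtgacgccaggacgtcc
Each window held 3 GC boxes. Cirbp also had 2 CCAAT boxes and Srsf5 had 2 ETS motifs, of which the last shares 1 base with a GC box. None held the TATA letters. GC content was 65.6%, 72% and 56.8%. Windows were found for 41 of the 45 genes, all but Hnrnpll, Hnrnpul2, Rbm22 and Rbm8a. Of the 41, 61.0% held a GC box and 61.0% a CCAAT box, against 32.96% and 34.5% of 27025 such windows of all genes in the table. The ETS motif was found in 14.6%, against 7.07%, and the TATA box in 9.76%, against 13.0%. The table of all genes includes noncoding genes, and a match of letters is a description only.

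Cnbp, a zinc finger protein that binds single-stranded nucleic acids and promotes translation, read 12.52, 12.48 and 12.41 in the knockouts and 12.30, 12.24 and 12.10 in wild type. The groups did not overlap (0.26, SE 0.07, 95% interval 0.10 to 0.41). A second probe set with high signal gave 0.34, again without overlap, and the dimmest gave -0.024.

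Ddx3x, an X-linked RNA helicase of translation initiation, read 10.11, 10.57 and 10.32 in the knockouts and 9.94, 10.06 and 10.22 in wild type at the probe set with the highest mean. Knockout 1 lay below wild type 3 there. The difference was 0.26 (SE 0.11), and 0.14 without knockout 2. At a second probe set the values were 9.49, 9.61 and 9.37 against 9.004, 9.07 and 9.26, with no overlap and a difference of 0.38 (SE 0.09). Besides Ddx3x, 2 of the 45 genes lie on the X chromosome in the RefSeq table, Hnrnph2 and Rbmx, and they differed by 0.21 and 0.065.

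Sfpq, a splicing factor and a core protein of nuclear paraspeckles, was the gene picked by name that had a lower knockout mean. It read 9.31, 8.96 and 8.85 in the knockouts and 9.21, 9.09 and 9.14 in wild type, so that knockout 1 was the highest and knockouts 2 and 3 were the lowest arrays. The difference was -0.11 (SE 0.11), -0.24 without knockout 1 and -0.012 without knockout 3. Its dimmest probe set, at percentile 7.91 of mean level, differed by -0.33 (SE 0.08) without overlap.

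**Figure D3:**
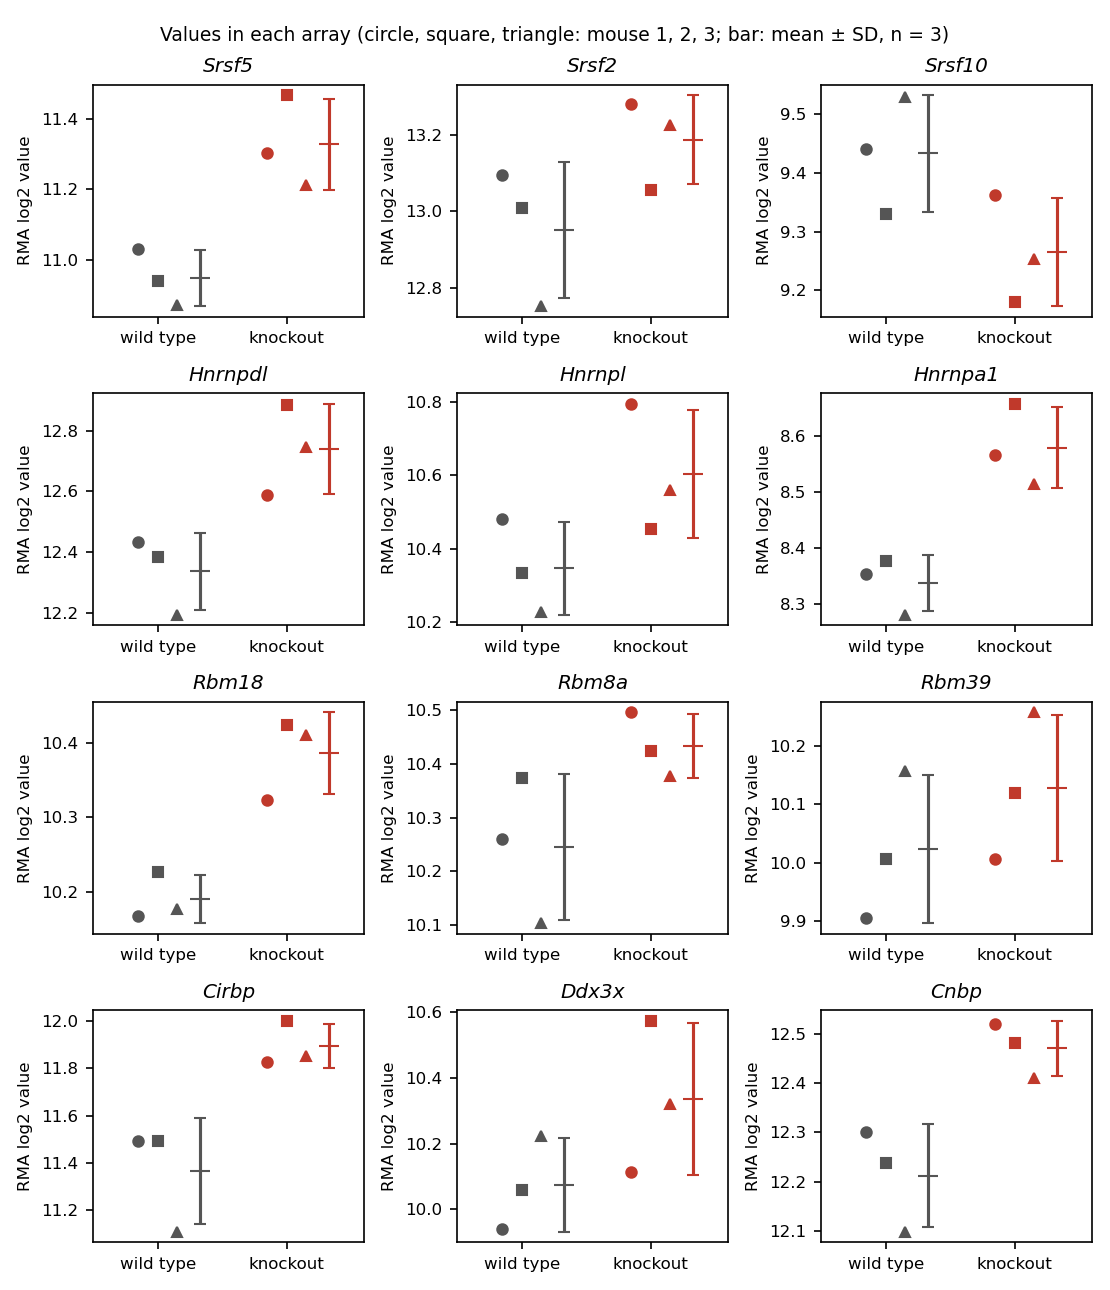
RMA log2 value (y axis, a separate scale for each gene) in each array for the 3 genes with the largest absolute difference in each family and for Cirbp, Ddx3x and Cnbp; symbols are mice and bars are mean ± SD (n = 3). Groups are separate for Srsf5, Hnrnpdl, Hnrnpa1, Rbm18, Rbm8a, Cirbp and Cnbp, and overlap in the other 5 panels.

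Among SR proteins, Srsf2, which also activates transcription elongation, read 13.28, 13.06 and 13.23 in the knockouts and 13.10, 13.01 and 12.75 in wild type. Knockout 2 lay below wild type 1, and the difference was 0.24 (SE 0.10), or 0.14 without wild type 3. Its second probe set gave 0.27, without overlap. Srsf3, the smallest SR protein, read 11.25, 11.03 and 11.08 against 10.78, 11.07 and 11.04, a difference of 0.16 (SE 0.09) that rested on the high knockout 1 and the low wild type 1. It was 0.092 without the first and 0.065 without the second. The other probe set of Srsf3 gave -0.026. Srsf1, the prototype of the family, differed by 0.14 at its brightest probe set, and by -0.086, 0.14 and -0.023 at the others. Srsf9 differed by 0.10 and Srsf6 by 0.093.

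The SR proteins with lower knockout means included Srsf10, which represses splicing when it loses phosphate. It read 9.36, 9.18 and 9.25 in the knockouts and 9.44, 9.33 and 9.53 in wild type, with a difference of -0.17 (SE 0.07, 95% interval -0.33 to -0.0029). Knockout 1 overlapped with wild type 2. Srsf11 differed by -0.14, without overlap, and Srsf4 by -0.023.

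In the Hnrnp family, Hnrnpl, which binds CA repeats, read 10.80, 10.45 and 10.56 in the knockouts and 10.48, 10.33 and 10.23 in wild type. Knockout 2 lay just below wild type 1, and the difference of 0.26 (SE 0.10) was 0.16 without knockout 1. Hnrnpa1, a repressor of splice sites, read 8.57, 8.66 and 8.51 against 8.35, 8.38 and 8.28. These groups did not overlap (0.24, SE 0.06, 95% interval 0.10 to 0.38), and the value was 0.25 without knockout 1. Hnrnph2, which binds runs of G, read 8.88, 8.63 and 8.72 against 8.47, 8.49 and 8.64, with knockout 2 at 8.63 just below the highest wild type mouse and a difference of 0.21 (SE 0.08).

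Hnrnpc, which binds runs of U, differed by 0.21 without overlap, and Hnrnpab by 0.14 without overlap. Hnrnpk, which binds runs of C, differed by 0.19, Hnrnpd by 0.17, Hnrnpr by 0.12 and Hnrnpa2b1 by 0.11. Hnrnph1 and Hnrnpm differed by 0.066 and 0.0063. In Hnrnpm knockout 1 read 11.08, while knockouts 2 and 3, at 10.58 and 10.56, lay below all wild type mice. The 4 members with lower knockout means were Hnrnpul2 at -0.15, the scaffold attachment factor Hnrnpu at -0.12, Hnrnph3 at -0.089 and Hnrnpll at -0.022. None of these 4 was without overlap.

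The Rbm family had the narrowest spread of differences, from -0.099 to 0.20. Rbm18 read 10.32, 10.42 and 10.41 in the knockouts and 10.17, 10.23 and 10.18 in wild type, without overlap (0.20, SE 0.06, 95% interval 0.06 to 0.33). Rbm8a, a core protein of the exon junction complex, read 10.50, 10.42 and 10.38 against 10.26, 10.37 and 10.10, with knockout 3 just above wild type 2. Its difference was 0.19 (SE 0.08), and 0.12 without wild type 3. Rbm39, a splicing factor related to U2af2, read 10.01, 10.12 and 10.26 against 9.91, 10.01 and 10.16, overlapping widely. Its difference of 0.11 (SE 0.09) ranged from 0.040 without knockout 3 to 0.17 without wild type 3.

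Rbm14, a paraspeckle protein and transcription coactivator, had the lowest difference of the family. It read 9.77, 9.53 and 9.56 against 9.58, 9.87 and 9.71, with overlap and a difference of -0.099 (SE 0.09). Single arrays moved this value, to -0.17 without knockout 1 or wild type 1, -0.054 without knockout 2 and -0.025 without wild type 2. The other 12 Rbm genes lay between -0.049 for Rbm6 and 0.065 for Rbmx, all with intervals that held 0. They include the splicing factors Rbm17, Rbm22 and Rbm25 at 0.049, 0.024 and -0.0048, and Rbm15 of the m6A methylation complex at -0.0097. Rbmxl1, a retrogene copy of Rbmx, differed by -0.014, and these near-identical genes can share probes.

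Most members with a higher knockout mean were bright. All probe sets were divided by mean level into 4 bins of equal size, a division made after seeing the data. The brightest bin held 25 of the 45 genes, of which 22 had a higher knockout mean, with a median difference of 0.14, against 49.9% of all genes in that bin and a median of -0.00012. In the next bin 3 of 12 were higher, with a median of -0.025, against 34.9% and -0.028. In the bin below that 3 of 7 were higher (median -0.0048, against 32.3% and -0.034), and the dimmest bin held Rbm22. All these counts include knockout 1, and the bins were not recounted without it. Over all 45 genes, its omission took the higher count from 29 to 22. The part of signal level in the family medians was not tested.

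**Figure D4:**
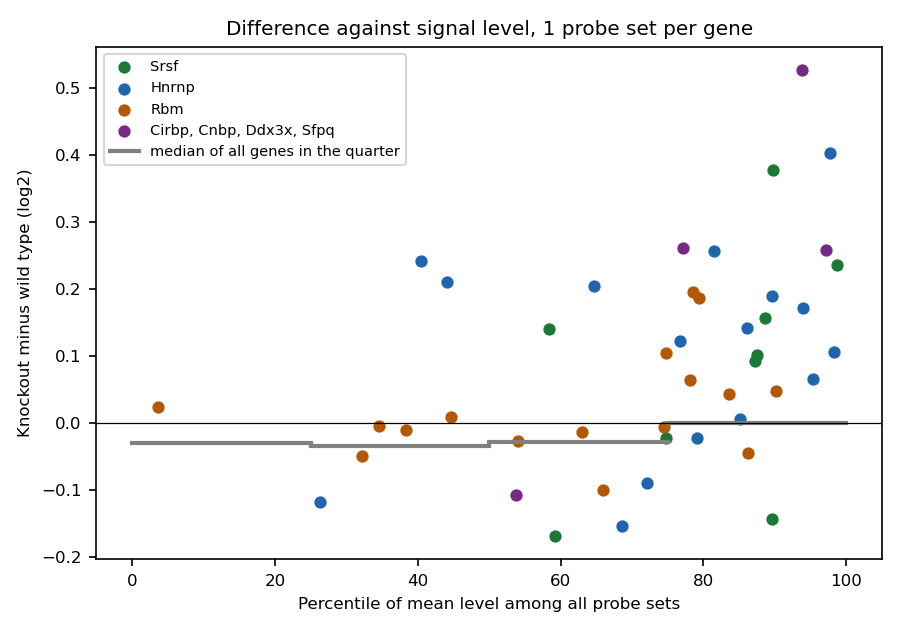
Knockout minus wild type difference (y axis, log2) of the 45 genes against the percentile of their mean level among all probe sets (x axis), with the median of all genes in each of 4 bins of level (grey lines). In the brightest bin 22 of 25 members lie above 0, and below it 7 of 20 do.

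Agreement between probe sets could be examined for 17 genes with 2 to 5 probe sets. All probe sets of a gene had the same direction of difference in 8 of the 17 (47.1%), against 55.8% of 2073 such genes of the array. With exactly 2 probe sets it was 8 of 12 (66.7%, against 60.7% of 1675). The median range of differences within a gene was 0.084, against 0.073. The genes in agreement were Srsf2, Srsf4, Srsf10, Hnrnpab, Hnrnpa2b1, Hnrnpu, Hnrnpul2 and Rbm14. Hnrnpab was closest, at 0.14 and 0.15, although the second of its probe sets was dim (percentile 9.76). Srsf2 gave 0.24 and 0.27, and Srsf10 gave -0.17 and -0.095.

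For each pair of probe sets of a gene, the gap between their differences was fitted with its own error over all such pairs of the array. The 95% interval of this gap left out 0 in 8 of the 37 member pairs, against 4.44% of 3311 pairs. Pairs of a gene share probe sets and are not independent, and the genes were chosen with this contrast in view. By family it was 5 of 16 pairs for the genes picked by name, 2 of 7 in Hnrnp, 1 of 4 in Rbm and 0 of 10 in Srsf. Among probe sets with the plain suffix alone it was 1 of 12 pairs (8.33%), against 4.87%. Of the 70 member probe sets, 9 had the suffix _f_at, 4 _s_at and 4 _r_at, which mark probes shared with related sequences or chosen by relaxed rules.

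In Hnrnpdl, differences of 0.40 and 0.32 stood beside -0.043 at a probe set that read 6.18, 6.16 and 6.08 in the knockouts and 6.21, 6.17 and 6.17 in wild type, at percentile 5.84 of mean level. The gap between the first and the last was 0.45 (95% interval 0.22 to 0.67). In Ddx3x the outlying probe set, at percentile 19.4, read 7.22, 7.19 and 6.9998 against 7.33, 7.25 and 7.22, lower without overlap, and its gap to the second probe set was 0.51 (95% interval 0.29 to 0.73). In Cnbp the dimmest probe set read 8.16, 8.39 and 8.25 against 8.33, 8.45 and 8.09, at percentile 37.1, with a gap of 0.36 (95% interval 0.08 to 0.64) to the second. Its difference of -0.024 changed sign under quantile normalization (0.012), median centring (0.0082), cyclic loess (0.0095), the Gapdh covariate (0.011), and without wild type 2 (0.056) or knockout 1 (0.030). In these 3 genes the outlying probe set was the dimmest. Rbm39 gave 0.11 and, at percentile 10.3, -0.10, with a gap of 0.21 (95% interval 0.018 to 0.40). Direction also differed in Srsf1, Srsf3, Rbmx and Rbms1, where the interval of every gap held 0. Disagreement there was not confined to dim probe sets. Srsf1 gave -0.086 at percentile 50.1, Srsf3 -0.026 at 52.6 and Rbmx -0.096 at 47.3, against 0.14, 0.16 and 0.065 at their brightest probe sets.

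Sfpq had 5 probe sets. The one at -0.33 read 6.05, 6.17 and 6.27 in the knockouts and 6.54, 6.38 and 6.58 in wild type. Another dim probe set (percentile 9.65) differed by 0.026, and their gap was 0.36 (95% interval 0.14 to 0.58). The 3 brighter ones differed by -0.11, -0.098 and -0.025. At the last of these the knockouts read 9.69, 8.59 and 8.89 against 9.02, 9.20 and 9.03, so that knockout 1 was the highest and knockouts 2 and 3 were the lowest arrays. Without knockout 1 these 3 differences were -0.24, -0.24 and -0.34, while the dim probe set at 0.026 became 0.074. The signs were not stable at 2 of the 5. The value of 0.026 was -0.014 with array weights, -0.017 without wild type 1 and -0.041 without knockout 2. The value of -0.025 was 0.0065 after median centring, 0.18 with array weights, and 0.031, 0.21 and 0.057 without wild type 2, knockout 2 and knockout 3.

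**Figure D5:**
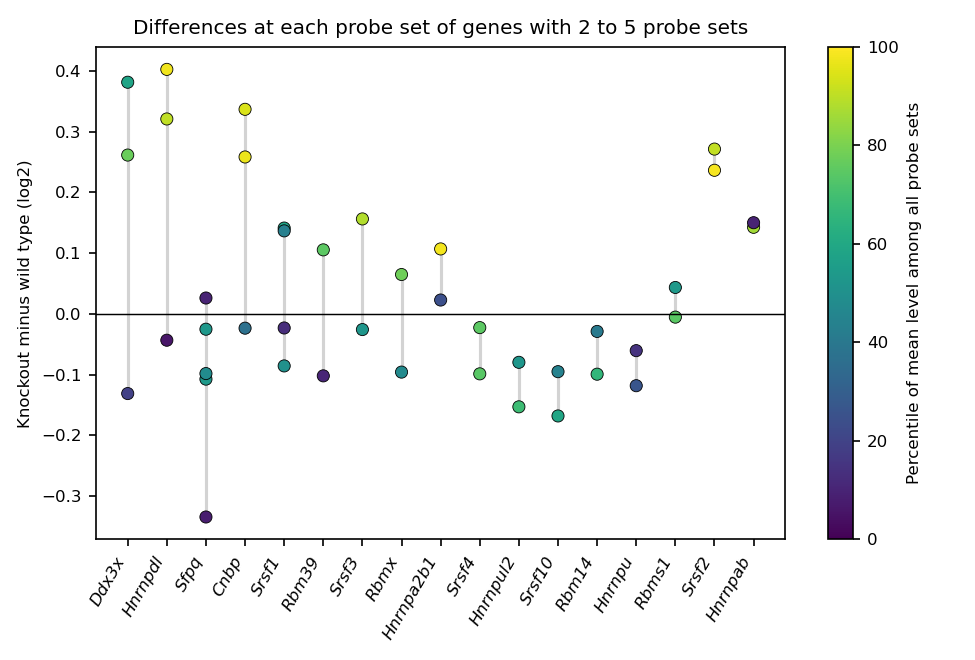
Knockout minus wild type difference (y axis, log2) at each probe set of the 17 genes with 2 to 5 probe sets (x axis, ordered by the range within the gene), coloured by the percentile of mean level. Ranges run from 0.51 in Ddx3x to 0.0076 in Hnrnpab, and the outlying points of Ddx3x, Hnrnpdl and Sfpq are dark, that is dim.

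Other genes of RNA processing were taken from 7 lists, and none of their members passed in limma. The counts of higher genes below stand beside 38.3% of all genes, and 49.9% of those in the brightest bin of level. Paraspeckle, FET and partner proteins had 10 of 14 higher, with a median of 0.076, or 10 of 14 and 0.065 without knockout 1. Pspc1, a paraspeckle partner of Sfpq, read 9.17, 9.38 and 9.32 in the knockouts and 9.02, 9.03 and 8.62 in wild type, without overlap (0.40, SE 0.11, 95% interval 0.16 to 0.64). Pcbp2, which binds runs of C, differed by 0.27, also without overlap, and Nono, the other partner of Sfpq in paraspeckles, by 0.25. A list of cold-shock domain and mild-cold genes, which also holds heat shock chaperones, had 7 of 10 higher (median 0.070). Without knockout 1 it had 8 of 10 higher (median 0.031). Its largest differences were in the heat shock chaperones Serpinh1, at 0.14, and Dnajb1, at 0.097, and in the cold-shock domain protein Ybx1, at 0.092.

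Among kinases and partners of SR proteins 6 of 21 were higher (median -0.038). Clk1, a kinase that phosphorylates SR proteins, read 10.47, 10.11 and 10.43 in the knockouts and 10.61, 10.80 and 10.65 in wild type, without overlap (-0.35, SE 0.10, 95% interval -0.57 to -0.13). Luc7l3 differed by -0.27 and Safb by -0.25. Among neuronal and developmental regulators 6 of 27 were higher (median -0.038), with Mbnl1 at -0.19, Tia1 at -0.17 and Elavl1 at 0.17. Core proteins of the spliceosome had 14 of 33 higher (median -0.013), with Prpf38b at -0.23, Snrpe at 0.23 and Snrpa1 at 0.21. DEAD and DEAH box helicases had 10 of 23 higher (median -0.0059), with Dhx36 at -0.46, Ddx1 at 0.17 and Ddx6 at 0.16. Genes of the exon junction, mRNA export, 3' processing and nonsense-mediated decay had 8 of 16 higher (median -0.0061), with Nudt21 at 0.19, Alyref at 0.15 and Cstf3 at -0.13.

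Cell type markers were read beside these families. Among all genes, 38.3% had a higher knockout mean, and 39.3% without knockout 1. Of 5 oligodendrocyte genes 0 were higher in the knockouts, and their mean level ran from 10.52 to 10.90 in the knockouts and from 10.76 to 11.04 in wild type. The median difference of this list was -0.14, and -0.041 with 1 of 5 higher without knockout 1. Their median deviation was lowest in knockout 1, at -0.26, the array in which the Srsf and Hnrnp medians were highest. Of 7 genes of vessels and blood 6 were higher, with mean levels of 10.52 to 10.63 against 10.37 to 10.51. The blood genes Hba-a1, Hbb-b2 and Alas2 differed most, by 0.29, 0.24 and 0.14. The vessel genes Cdh5, Cldn5, Tek and Pecam1 differed by 0.10, 0.059, 0.052 and -0.0046, all with intervals that held 0. The other lists were mixed, with 3 of 9 granule neuron, 1 of 6 Purkinje, 3 of 7 astrocyte and Bergmann glia, 3 of 7 microglial, 2 of 4 forebrain and 1 of 4 choroid plexus genes higher. Without knockout 1 these counts were 2, 3, 5, 2, 2 and 0 in the same order, and all 7 genes of vessels and blood were higher. The part of cell makeup in the family differences was not tested.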

How the data were processed

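Total RNA was labelled with biotin and measured on 6 arrays, 3 knockout and 3 wild type, grouped by the sample titles. The deposited values are log2 expression made by the authors with RMA (background correction, normalization between arrays, summary of probes), per the submitters' processing notes. For its version, its settings and a genome build, the sources used here give nothing. RMA aligns the arrays, so a global change in RNA amount is not measured. Precision is limited by the number of arrays. The 95% interval of a difference reached 0.16 log2 to either side at the median of all probe sets, and 0.19 at the median of the 70 member probe sets.

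Of 12488 probe sets, 66 array controls were left out. By the array annotation, 10833 had 1 symbol, 396 had more than 1 and 1193 had none. All 45 member genes were found in the RefSeq table (GRCm38.p6) with the same symbol. Genotype was tested with limma 3.58.1 in R 4.3.3 (lmFit, eBayes, 2-sided, Benjamini-Hochberg over 12422 probe sets, threshold 0.05), a procedure also run on simulated data. The simulated noise was independent between arrays, and the simulated effects were larger than any member difference. That run therefore says nothing about differences as small as those of the members, or about an array that deviates as a whole. Limma's p-values set a difference against the spread between these mice, with the variance of each probe set moderated over all probe sets. Named with values in every array were the genes picked by name, the 4 largest absolute differences in each family, and genes whose probe sets were 0.3 log2 or more apart. From each pathway list the 3 largest absolute differences were named. Further array values are given where they show overlap. The members and gene lists were chosen with earlier results of these data known. Alternatives were other normalizations, variance models and array weights, a filter on dim probe sets, a Gapdh covariate, other summaries per gene, a replicate block and the omission of each array. Planned protein features were not analysed here.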

Additional observations from a re-analysis of the deposited data

How the results depend on the processing

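No member probe set passed under any of the 15 other settings tried, and neither did any probe set of the array except 1 without knockout 3. Under the 11 settings that can move a difference, the 286 values of the 26 named probe sets stayed within 1 within-group SD of the reported value. Another sign was seen in 14 of them. With 3 arrays per group, leaving out 1 array cannot move a difference by 1 such SD. For the single omissions the first count therefore shows nothing about stability. Over the single omissions the median difference ran from -0.0019 to 0.14 over all members, 0.080 to 0.18 in Hnrnp, 0.021 to 0.20 in Srsf, -0.029 to 0.056 in Rbm (below 0 also with the Gapdh covariate, at -0.030, the mean of probe sets, at -0.0016, plain probe sets, at -0.0048, and the second highest probe set, at -0.0072), 0.20 to 0.30 in the genes picked by name and -0.030 to -0.010 over all genes. With the Gapdh covariate it was -0.0065 in Srsf and -0.0065 over all members. With the second highest probe set it was -0.026 in Srsf and 0.36 in the genes picked by name, which had 0.18 with the mean of probe sets and 0.38 with plain probe sets. The median over all genes was -0.0058 after quantile normalization, 0.0097 after median centring, -0.0055 after cyclic loess and -0.017 with dim probe sets left out. Member probe sets without overlap numbered 15 to 27 higher and 4 to 15 lower over the single omissions, against 5.76% to 8.71% and 10.4% to 19.4% of all probe sets. They numbered 2, 1, 2 and 2 lower after quantile normalization, median centring, cyclic loess and the filter at the 40th percentile, against 4.31%, 3.25%, 4.56% and 5.73%. Member pairs whose interval left out 0 made up 13.5% to 29.7% over the single omissions, against 2.99% to 8.25% of all pairs. With plain probe sets they made up 8.33%, against 4.87%. Without knockout 1, 5 Rbm genes had a higher knockout mean in place of 8. The causes were not tested.

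Whether the replicate numbers pair the mice is not known. Deviations of same-numbered arrays from their genotype means correlated at 0.16, -0.32 and 0.17. These deviations sum to 0 within a genotype, so the correlations depend on each other and cannot decide the question. With the replicate block 0 probe sets passed. In this balanced design the block leaves every difference as it is (0.13 for the Hnrnp median), so this shows nothing about stability.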
